A study of Drosophila melanogaster with 12 samples.

Results

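The tracheal system of adult *Drosophila melanogaster* was compared with that of the larva by RNA sequencing of hand-dissected tracheae. The comparison used 8 of the 12 libraries of the series, 4 titled as adult trachea and 4 titled as larval trachea, and was described over 1027 genes placed in 51 lists of metabolism, signalling, secretion and transcription factors. Adult tracheae came from the head, thorax and abdomen of w1118 females aged 5 to 7 days, and larval tracheae from w1118 larvae of both sexes at the middle of the 3rd instar, before wandering. Each library pooled the tracheae of 3 animals, and no transgene or treatment was involved. The 4 remaining libraries, from whole adult flies, took no part in the comparison. Age and sex differ together between the groups, so their contributions cannot be told apart. The body parts dissected are named for adults only, so whether they differed is not known. Nothing in the labels says whether the libraries of a group came from separate dissections or cultures, so p-values measure the spread between these libraries only. In such bulk samples, fewer cells of a type and less RNA per cell cannot be told apart either.

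The tracheal epithelium is a single layer of cells that secretes a chitin cuticle on its inner face and carries air to every tissue. In the embryo the bHLH-PAS factor Trachealess starts the programme, the FGF receptor Breathless and its ligand Branchless guide the branches, and Notch, Hedgehog, EGF receptor and Dpp signals sort the cells into branch types. The larval tubes are shed and rebuilt at metamorphosis, partly from progenitor cells set aside in the larva, under the control of ecdysone. In the adult, air sacs and fine branches lie close to flight muscle, fat body, gut, ovary and brain, and fat body and oenocytes are the main sites of trehalose, fat and cuticular hydrocarbon production in insects.

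Libraries held 4703048 to 13865281 exon reads in adult tracheae and 4573842 to 7531621 exon reads in larval tracheae. The 20 most abundant genes took 19.3% to 51.3% of exon reads in adult libraries and 31.7% to 39.9% in larval libraries. A count of 3 reads corresponded to 0.200 to 0.655 CPM in adult libraries and 0.386 to 0.660 in larval libraries, and this limit covers counting error only. CPM are exon reads scaled to the product of library size and normalisation factor. The normalisation factor was lowest in adult replicate 3, at 0.645, against 0.964 to 1.03 in larval libraries. On the first principal component of log2 CPM, which held 66.6% of the variance, adult libraries lay at 121 to 142 and larval libraries at -136 to -123, and the exact permutation test over the 70 splits gave p = 0.0286, the smallest p this design allows. Levels are given below as RPKM, the exon reads scaled by exon length and by the gene reads of the library that the authors deposited, in the order of replicates 1 to 4, and means carry the SD over n = 4 libraries.

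The labels were checked against marker lists of tissues the dissection could hold, and both groups differed in these lists. Of 16 tracheal epithelium markers, 13 were lower in adult tracheae, and their summed level was 103 to 145 RPKM in adult libraries, against 835 to 1987 RPKM in larval libraries. The chitin deacetylase genes *serp* and *verm*, given below, made up much of the larval sum. Expression of *trh* itself was 3.54, 1.88, 2.59 and 1.29 RPKM in adult tracheae, against 6.538, 3.90, 3.30 and 5.36 RPKM in larval tracheae. *trh* did not pass the test (log2 fold change -0.94, SE 0.50, edgeR adjusted p = 0.200), and its ranges overlapped. The yolk protein genes drove a fat body sum of 39124 to 84978 RPKM in adult libraries, against 102 to 324 RPKM in larval libraries, and without them the sums were 288 to 662 RPKM in adult libraries and 94.8 to 319 RPKM in larval libraries. Of the 14 fat body markers 7 were higher and 4 lower in adult tracheae, the lower ones being the larval serum and fat body protein genes *Lsp1beta*, *Lsp1gamma* and *Fbp2*, and *to*, with 2 lower without adult replicates 3 and 4. Photoreceptor markers summed to 1328 to 2368 RPKM in adult libraries, against 5.27 to 12.2 RPKM in larval libraries, and 13 of 14 were higher. Neuron markers summed to 37.0 to 163 RPKM in adult libraries, against 22.03 to 27.8 RPKM in larval libraries. Of these markers 11 of 14 were higher, with *brp* and *VGlut* at 0 reads in larval libraries. Oenocyte markers summed to 1297 to 2941 RPKM in adult libraries, against 0.0537 to 1.53 RPKM in larval libraries. Ovary and eggshell markers ranged from 97.3 to 13881 RPKM among adult libraries and from 0.686 to 7.08 RPKM among larval libraries, where 9 of the 17 markers had no reads. Midgut markers summed to 1732 to 12143 RPKM in adult libraries, against 8.58 to 109.9 RPKM in larval libraries, and haemocyte markers to 164 to 244 RPKM in adult libraries, against 39.9 to 90.3 RPKM in larval libraries. Muscle sums overlapped, at 869 to 2331 RPKM in adult libraries and 115.4 to 2559 RPKM in larval libraries, with 5 of 16 markers higher and 1 lower. Glial sums overlapped too, although 4 of 7 glial markers were higher and 0 were lower by edgeR. Most of the glial sum came from *Gs2*, given below, which did not pass. Salivary gland markers summed to 0 to 86.8 RPKM in adult libraries and 0.770 to 2.72 RPKM in larval libraries. The male dosage RNA *roX1*, for which the tables list no exon length and which therefore has no exon reads, had 13, 32, 22 and 27 gene reads in adult tracheae of females, against 386, 1306, 251 and 981 gene reads in larval tracheae of both sexes. The part these other cells play in the differences described here was not tested.

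**Figure D1:**
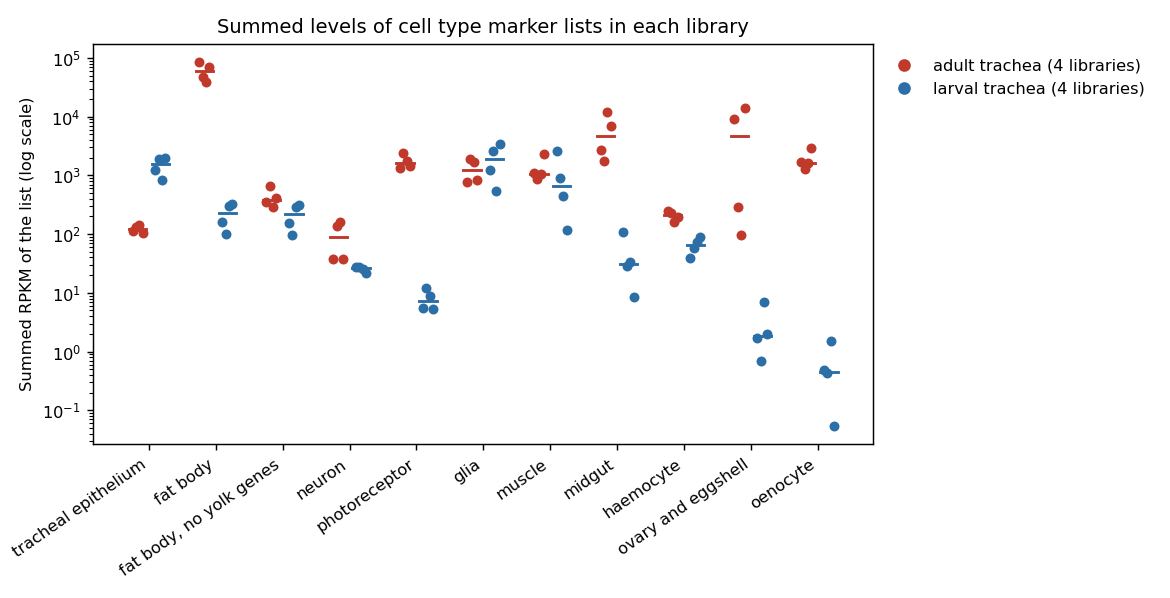
Summed RPKM, on a log scale, of 11 marker lists in each of the 4 adult and 4 larval libraries, with adult points left of larval points and a bar at the median. Tracheal epithelium markers sit at 103 to 145 RPKM in adult libraries, below every larval library, while photoreceptor, oenocyte and midgut sums lie above every larval library, as does the fat body sum with the yolk protein genes included.

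Expression differed between the groups in 2791 of 9875 genes tested, or 28.3%, by edgeR's quasi-likelihood test at a Benjamini-Hochberg adjusted p below 0.05 and a change of more than 1.5-fold. In all, 1906 genes (19.3%) were higher and 885 (8.96%) lower in adult tracheae, a split of 68.3% higher among the calls, which became 52.9% when an offset for exon length was fitted (1750 higher and 1560 lower). In 3209 genes (32.5%) the groups did not overlap, 2006 (20.3%) higher and 1203 (12.2%) lower. Of the 1027 listed genes 914 were tested, and 227 of them rose and 114 fell. Metabolic genes rose far above that background, with 154 of 300 higher, 23 lower and a median log2 fold change of 1.43, against 0.19 over all genes tested. Signalling genes leaned the other way, with 31 of 288 higher, 60 lower and a median of -0.38. Secretion genes lay below the background in the share called, with 22 of 210 higher and 16 lower. Transcription factor genes gave 22 higher and 20 lower of 145. Leaving out adult replicate 3 gave 31 lower secretion genes, and leaving out adult replicate 1 or larval replicate 1 gave 13 or 11 lower transcription factor genes. The exon length offset moved the median of all genes to -0.15. Medians without the offset are read against the 0.19 of the whole table, and medians with it against -0.15.

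**Figure D2:**
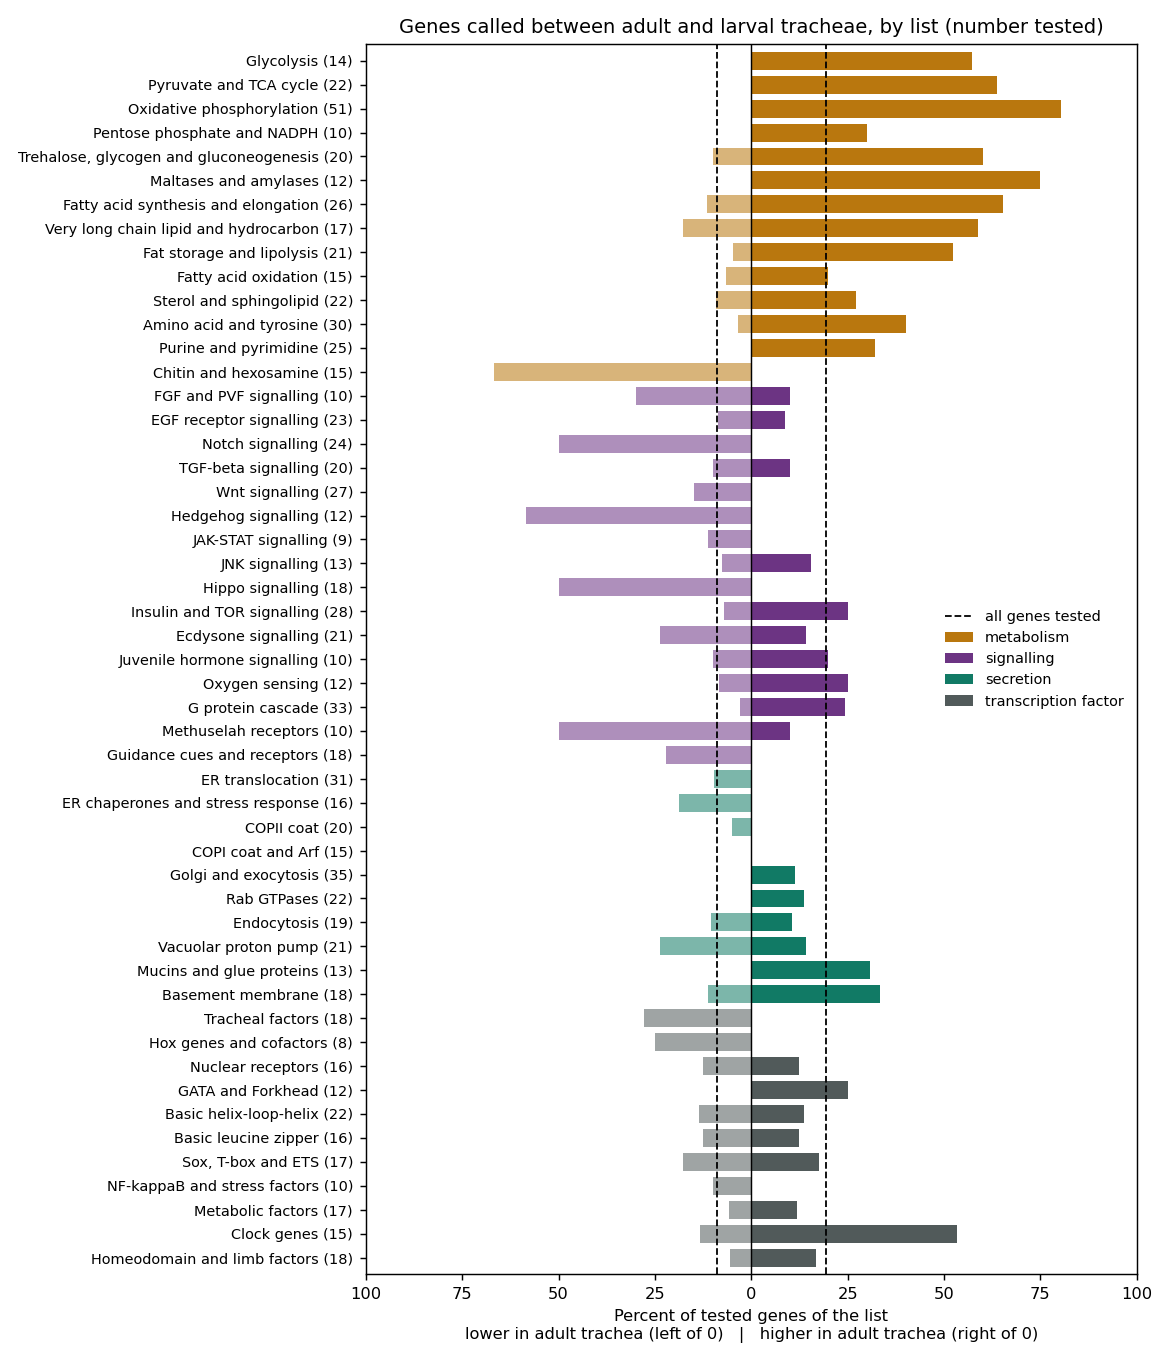
Percent of the tested genes of each of the 51 lists called higher (right of 0) or lower (left of 0, paler) in adult than in larval tracheae, with the number tested in parentheses and dashed lines at 19.3% and 8.96% for all genes tested. Most metabolism bars extend to the right past the line, and the chitin, Notch, Hedgehog, Hippo and Methuselah bars extend to the left.

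Genes of energy metabolism rose widely. In glycolysis, which splits glucose to pyruvate, 8 of 14 genes were higher in adult tracheae (median log2 fold change 1.44). The hexokinase *Hex-C*, which traps glucose as its phosphate, had 127, 140.0, 70.2 and 70.2 RPKM in adult tracheae, against 0, 0, 0.534 and 0 RPKM in larval tracheae. *Hex-C* stood apart in all libraries, with a larval level near zero (log2 fold change 9.76, SE 0.97, edgeR adjusted p = 0.000113, 13.39 without larval replicate 3). *Gpdh*, which feeds the glycerol phosphate shuttle, had 186, 178, 163 and 216 RPKM in adult tracheae, against 18.6, 18.2, 20.4 and 20.4 RPKM in larval tracheae. *Gpdh* was 9.60-fold higher with no overlap (log2 fold change 3.26, SE 0.29, edgeR adjusted p = 6.45e-05). Enolase (*Eno*) averaged 191 ± 79.1 RPKM in adult tracheae, against 45.7 ± 5.24 RPKM in larval tracheae (log2 fold change 2.06, SE 0.36, edgeR adjusted p = 0.00233), and aldolase (*Ald*) averaged 749 ± 192 RPKM in adult tracheae, against 218 ± 80.7 RPKM in larval tracheae (log2 fold change 1.90, SE 0.48, edgeR adjusted p = 0.0141). The most abundant gene of the list, *Gapdh2*, did not pass, with 879 ± 438 RPKM in adult tracheae, against 990.0 ± 164 RPKM in larval tracheae, and *PyK* and *ImpL3* did not pass either. With adult replicates 3 and 4 both left out, the higher genes of this list numbered 5. The pentose phosphate and NADPH list gave 3 higher of 10, and 1 without larval replicate 1.

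Entry of pyruvate into the mitochondrion and the TCA cycle gave 14 higher genes of 22 (median 1.35), a count that dropped to 9 without larval replicate 1 or without larval replicate 3. The pyruvate carrier genes *Mpc1* and *CG9399* averaged 68.5 ± 15.1 RPKM in adult tracheae, against 26.5 ± 7.997 RPKM in larval tracheae for *Mpc1*, and 75.7 ± 41.9 RPKM in adult tracheae, against 17.6 ± 10.96 RPKM in larval tracheae for *CG9399*. *muc*, a pyruvate dehydrogenase subunit, averaged 19.0 ± 3.22 RPKM in adult tracheae, against 4.17 ± 1.45 RPKM in larval tracheae, and *Pdk*, the kinase that restrains the same enzyme, averaged 37.2 ± 22.3 RPKM in adult tracheae, against 8.74 ± 2.45 RPKM in larval tracheae. Both subunit and kinase passed the test (log2 fold change 2.21, SE 0.39, edgeR adjusted p = 0.00236 for *muc*, log2 fold change 2.04, SE 0.41, edgeR adjusted p = 0.00458 for *Pdk*). In the succinate dehydrogenase complex, which serves the cycle and the respiratory chain, *SdhB* had 295, 172, 184 and 309 RPKM in adult tracheae, against 41.0, 57.5, 48.6 and 46.2 RPKM in larval tracheae. *SdhB* was 4.95-fold higher in adult tracheae without overlap (log2 fold change 2.31, SE 0.33, edgeR adjusted p = 0.000723), and *SdhC* and *SdhD* were higher by 3.73-fold and 3.11-fold. Citrate synthase (*kdn*) and aconitase (*Acon*) did not pass, at 9.56 ± 6.77 RPKM in adult tracheae, against 3.86 ± 1.17 RPKM in larval tracheae for *kdn*, and 281 ± 157 RPKM in adult tracheae, against 151 ± 29.8 RPKM in larval tracheae for *Acon*.

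The nuclear genes of oxidative phosphorylation followed, with 41 of 51 higher and a median log2 fold change of 1.55, which was 0.98 with the exon length offset. Complex I, which takes electrons from NADH, contributed 19 of 21, complex III 6 of 8, complex IV 8 of 9 and the ATP synthase 7 of 12. Called folds ran from 1.94 to 10.51. The top of that range was *Cyt-c-p*, the somatic cytochrome c that shuttles electrons to complex IV, with 1102, 1526, 1579 and 3524 RPKM in adult tracheae, against 121, 186, 203 and 202 RPKM in larval tracheae. *Cyt-c-p* did not overlap between the groups (log2 fold change 3.39, SE 0.40, edgeR adjusted p = 0.000267). The complex III genes *ox*, *RFeSP* and *Cyt-c1* followed, with folds of 5.99, 5.95 and 5.80, and the iron-sulphur subunit *RFeSP* averaged 336 ± 142 RPKM in adult tracheae, against 55.6 ± 16.7 RPKM in larval tracheae. *COX8* of complex IV had 1071, 1144, 1205 and 2824 RPKM in adult tracheae, against 278, 426, 425 and 336 RPKM in larval tracheae. It was the most abundant listed subunit of that complex in adult tracheae and lay above every larval library (log2 fold change 2.04, SE 0.36, edgeR adjusted p = 0.00245). The ATP synthase alpha subunit *blw* was among the genes that did not pass, at 601 ± 149 RPKM in adult tracheae, against 356 ± 108 RPKM in larval tracheae. The summed muscle markers overlapped between the groups, with 5 of 16 higher and 1, *Tm1*, lower (log2 fold change -1.80). Among the higher were *Act88F* and *fln*, genes of the adult flight muscle. *Act88F* averaged 52.1 ± 53.1 RPKM in adult tracheae, against 0.0192 ± 0.0384 RPKM in larval tracheae. *fln* averaged 105 ± 66.7 RPKM in adult tracheae, against 0.0383 ± 0.0766 RPKM in larval tracheae. The part of muscle cells in this list was not tested.

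Trehalose, the blood sugar of insects, and glycogen formed the next group, with 12 of 20 genes higher and 2 lower (median 2.42). *Tps1*, the trehalose synthase, had 417, 549.6, 194 and 286 RPKM in adult tracheae, against 0.249, 0.0477, 0.205 and 0.252 RPKM in larval tracheae. *Tps1* was far above every larval library (log2 fold change 10.78, SE 0.58, edgeR adjusted p = 9.42e-06). *Treh*, which splits trehalose again, averaged 27.1 ± 7.19 RPKM in adult tracheae, against 6.36 ± 3.35 RPKM in larval tracheae (log2 fold change 2.13, SE 0.51, edgeR adjusted p = 0.0108), and this call was lost when adult replicates 3 and 4 were left out (edgeR adjusted p = 0.0724). The trehalose transporter *Tret1-1* averaged 82.6 ± 12.5 RPKM in adult tracheae, against 0.383 ± 0.526 RPKM in larval tracheae (log2 fold change 7.78, and 9.41 without larval replicate 2). For gluconeogenesis, *Pepck* had 130.1, 185, 75.6 and 53.8 RPKM in adult tracheae, against 4.39, 4.26, 3.77 and 9.45 RPKM in larval tracheae. *Pepck* was 19.8-fold higher (log2 fold change 4.31, SE 0.49, edgeR adjusted p = 0.000214), and the fructose bisphosphatase *fbp* was 7.25-fold higher. *UGP*, which makes UDP-glucose, averaged 109 ± 15.3 RPKM in adult tracheae, against 11.2 ± 2.35 RPKM in larval tracheae (log2 fold change 3.27, SE 0.30, edgeR adjusted p = 7.67e-05), while glycogen synthase (*GlyS*) and glycogen phosphorylase (*GlyP*) did not pass. Against this trend the transporter gene *MFS3* had 1.82, 3.05, 0.329 and 0.152 RPKM in adult tracheae, against 66.0, 55.7, 25.5 and 50.4 RPKM in larval tracheae. *MFS3* fell in every adult library (log2 fold change -5.41, SE 0.82, edgeR adjusted p = 0.00105, -6.01 without adult replicate 2).

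Maltases and amylases, which digest starch and sugars in the gut, gave 9 higher genes of 12. *Mal-B1* had 454, 11.5, 213 and 119.6 RPKM in adult tracheae, against 0, 0.230, 0.110 and 0.0675 RPKM in larval tracheae. Its groups were widely apart (log2 fold change 10.999, SE 1.42, edgeR adjusted p = 0.000435, 10.36 without adult replicate 1 and 11.79 without larval replicate 2). The amylase *Amy-p* had 153, 150.1, 137 and 75.04 RPKM in adult tracheae and 1 larval read, a ratio of 5453 (95% counting interval 978 to 215399). *Mal-A6* had 2.21, 1.26, 36.7 and 32.4 RPKM in adult tracheae and no larval reads, at least 505-fold higher (296 without adult replicate 3). The midgut marker sum, which shares *Mal-A1* and *Amy-p* with this list, was 1732 to 12143 RPKM in adult libraries and 8.58 to 109.9 RPKM in larval libraries, and its part in this list was not tested.

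Fatty acid synthesis and elongation held some of the largest changes of the metabolic lists, with 17 of 26 genes higher, 3 lower and a median log2 fold change of 4.48. *FASN1*, the fatty acid synthase of the fat body, had 60.9, 78.2, 59.3 and 60.5 RPKM in adult tracheae, against 1.10, 4.86, 3.78 and 6.397 RPKM in larval tracheae. *FASN1* did not overlap (log2 fold change 4.02, SE 0.52, edgeR adjusted p = 0.000426), and the acetyl-CoA carboxylase gene *ACC* averaged 13.9 ± 3.30 RPKM in adult tracheae, against 3.95 ± 0.436 RPKM in larval tracheae (log2 fold change 1.82, SE 0.30, edgeR adjusted p = 0.00169). *Fad2*, a desaturase of female pheromone synthesis, had 480.2, 455, 334.4 and 811 RPKM in adult tracheae, against 0.333, 0, 1.06 and 0 RPKM in larval tracheae. *Fad2* was near the detection limit in larval tracheae (log2 fold change 10.60, SE 1.04, edgeR adjusted p = 0.000104, 12.07 without larval replicate 3). The elongase *eloF*, also of the female pheromone pathway, had 194, 180.1, 102 and 235 RPKM in adult tracheae and 1 larval read, a ratio of 4290.2 (95% counting interval 769.7 to 169479). *CG9458* and *CG18609*, members of the same elongase family, had no larval reads and were at least 478-fold (305 without adult replicate 4) and 379-fold higher. The elongase *bond* ran the other way, with 58.7, 99.1, 87.9 and 63.9 RPKM in adult tracheae, against 553, 356, 431 and 506 RPKM in larval tracheae. *bond* was 5.79-fold lower in adult tracheae without overlap (log2 fold change -2.53, SE 0.37, edgeR adjusted p = 0.000831), and its relative *CG31522* fell by 4.94-fold. *Desat1*, the general stearoyl-CoA desaturase, averaged 561 ± 139.6 RPKM in adult tracheae, against 201 ± 76.5 RPKM in larval tracheae, and *ATPCL* did not pass. *FASN1* is also among the fat body markers. Without the yolk protein genes their sum was 288 to 662 RPKM in adult libraries and 94.8 to 319 RPKM in larval libraries. The part of fat body cells in this list was not tested.

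Genes for very long chain lipids and hydrocarbons split within the family of fatty acyl-CoA reductases, 5 of 11 higher and 3 lower. *CG4020* had 137, 85.0, 51.0 and 192 RPKM in adult tracheae and no larval reads, at least 1921-fold higher. *CG8306* had 21.998, 23.7, 26.3 and 19.4 RPKM in adult tracheae, against 192, 127, 77.1 and 163 RPKM in larval tracheae. *CG8306* fell without overlap (log2 fold change -2.55, SE 0.42, edgeR adjusted p = 0.00156). *wat* (waterproof), the reductase required for gas filling of the tracheal tubes, had 58.6, 256, 90.5 and 85.9 RPKM in adult tracheae, against 368, 349.5, 218 and 516 RPKM in larval tracheae. The ranges of *wat* overlapped in RPKM, with adult replicate 2 above the lowest larval library, and its decrease (log2 fold change -1.66, SE 0.43, edgeR adjusted p = 0.0170) was lost when adult replicates 3 and 4 were left out (edgeR adjusted p = 0.0841). *Cyp4g1*, the cytochrome P450 that makes hydrocarbons in oenocytes, had 1521, 1114, 1487 and 2704 RPKM in adult tracheae, against 0.383, 0.367, 1.31 and 0.0537 RPKM in larval tracheae. *Cyp4g1* was the most abundant gene of this list in adult tracheae and near zero in larval tracheae (log2 fold change 11.70, SE 0.96, edgeR adjusted p = 4.11e-05, 12.62 without larval replicate 3). *Cyp4g1* and *eloF* also belong to the oenocyte markers, whose sum was 1297 to 2941 RPKM in adult libraries and 0.0537 to 1.53 RPKM in larval libraries.

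Fat storage and transport gave 11 higher genes and 1 lower of 21 (median 1.66). The lipid droplet protein gene *Jabba* had 206, 272, 85.7 and 299 RPKM in adult tracheae, against 12.95, 17.9, 7.998 and 34.7 RPKM in larval tracheae. *Jabba* was 10.8-fold higher (log2 fold change 3.43, SE 0.46, edgeR adjusted p = 0.000547), and the perilipin *Lsd-2* averaged 122 ± 59.1 RPKM in adult tracheae, against 19.2 ± 5.44 RPKM in larval tracheae (log2 fold change 2.61, SE 0.37, edgeR adjusted p = 0.000758), whereas *Lsd-1*, at 148 ± 76.5 RPKM in adult tracheae, against 21.9 ± 23.7 RPKM in larval tracheae, did not pass. *bmm*, the triglyceride lipase of lipid droplets, averaged 12.5 ± 6.55 RPKM in adult tracheae, against 0.477 ± 0.407 RPKM in larval tracheae (log2 fold change 4.58, SE 0.72, edgeR adjusted p = 0.00120). *apolpp*, the precursor of the main circulating lipoprotein, had 76.8, 114, 92.4 and 26.03 RPKM in adult tracheae, against 0.904, 0.0473, 3.37 and 0.364 RPKM in larval tracheae. *apolpp* was above every larval library (log2 fold change 6.12, SE 1.18, edgeR adjusted p = 0.00373, 7.53 without larval replicate 3). It is also among the fat body markers, whose part in this list was not tested. Both lipophorin receptor genes rose, *LpR1* by 3.15-fold and *LpR2* by 8.78-fold. The lower gene, *Lip1*, had no adult reads and kept its call in 1 of the 8 fits without a library. Fatty acid oxidation stayed close to the background, with 3 of 15 higher, *CG17544* lower and a median of 0.54, and DESeq2 called 7 higher. The carnitine palmitoyltransferase *whd* was at 51.3 ± 18.8 RPKM in adult tracheae, against 41.4 ± 11.7 RPKM in larval tracheae and did not pass.

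Of 22 sterol and sphingolipid genes 6 rose and 2 fell. The Niemann-Pick type C2 family, small secreted sterol-binding proteins, spanned the range. *Npc2g* had 943, 1139.6, 321 and 712 RPKM in adult tracheae, against 4.64, 0.211, 5.14 and 0 RPKM in larval tracheae. *Npc2g* was above every larval library (log2 fold change 8.19, SE 1.14, edgeR adjusted p = 0.000648, 8.78 without larval replicate 3). *Npc2a* averaged 308 ± 85.0 RPKM in adult tracheae, against 25.9 ± 10.1 RPKM in larval tracheae (log2 fold change 3.51, SE 0.36, edgeR adjusted p = 0.000132), and *Npc2h* was at least 701-fold higher with no larval reads. Opposite to these, *Npc2b* averaged 144 ± 12.7 RPKM in adult tracheae, against 300.4 ± 46.5 RPKM in larval tracheae (log2 fold change -1.04, SE 0.29, edgeR adjusted p = 0.0224), a call that held in 5 of the 8 fits with 1 library left out, and *Npc1a* fell in 7 of them. The sphingolipid genes *Sply* and *wun2* were higher by 2.64-fold and 24.2-fold, and the serine palmitoyltransferase *lace* did not pass, at 11.1 ± 2.78 RPKM in adult tracheae, against 11.6 ± 5.24 RPKM in larval tracheae.

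Amino acid metabolism gave 12 higher genes and 1 lower of 30 (median 1.53). *Hn*, the phenylalanine hydroxylase that supplies tyrosine, had 182, 223, 69.96 and 136 RPKM in adult tracheae, against 2.20, 4.74, 1.696 and 4.57 RPKM in larval tracheae. *Hn* was 43.0-fold higher (log2 fold change 5.43, SE 0.46, edgeR adjusted p = 4.45e-05), and the tyrosine breakdown genes *CG11796* and *hgo* rose by 90.6-fold (log2 fold change 6.50, and 9.22 without larval replicate 3) and 41.4-fold. Tyrosine hydroxylase (*ple*) and dopa decarboxylase (*Ddc*), the enzymes of dopamine synthesis, did not pass, at 27.6 ± 42.9 RPKM in adult tracheae, against 4.17 ± 4.61 RPKM in larval tracheae for *ple*, and 17.4 ± 8.68 RPKM in adult tracheae, against 7.34 ± 8.79 RPKM in larval tracheae for *Ddc*. *aay*, a phosphoserine phosphatase, averaged 278 ± 183 RPKM in adult tracheae, against 3.01 ± 1.36 RPKM in larval tracheae (log2 fold change 6.39, SE 0.50, edgeR adjusted p = 3.84e-05). *Gs2*, the glutamine synthetase that was the most abundant gene of the list, averaged 1168 ± 499 RPKM in adult tracheae, against 1905 ± 1332 RPKM in larval tracheae and did not pass. In purine synthesis 5 of 10 genes were higher. *ade5* had 286, 406, 102 and 254 RPKM in adult tracheae, against 31.5, 46.5, 29.5 and 59.9 RPKM in larval tracheae. *ade5* did not overlap (log2 fold change 2.52, SE 0.35, edgeR adjusted p = 0.000648), and *Prat2*, an enzyme of the committed step, was at least 532-fold higher with no larval reads, while its paralogue *Prat* did not pass, at 24.98 ± 20.5 RPKM in adult tracheae, against 15.2 ± 2.77 RPKM in larval tracheae. Of the 9 pyrimidine synthesis genes 0 were called by edgeR, 0 had an unadjusted p below 0.05, and DESeq2 also called 0.

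Chitin and hexosamine genes were the exception among metabolic lists, with 10 of 15 lower in adult tracheae and a median log2 fold change of -4.11. All 5 tested genes of the synthase and assembly group fell, 4 of them in each of the 8 fits without 1 library and *rtv* in 7. *kkv*, the chitin synthase, had 0, 0.0241, 0 and 0.229 RPKM in adult tracheae, against 5.65, 8.38, 4.79 and 8.09 RPKM in larval tracheae. *kkv* was near zero in adult tracheae (log2 fold change -6.71, SE 0.97, edgeR adjusted p = 0.000797, -9.42 without adult replicate 4). *knk*, which organises the chitin fibres, averaged 0.757 ± 0.410 RPKM in adult tracheae, against 52.8 ± 4.45 RPKM in larval tracheae (log2 fold change -6.22, SE 0.45, edgeR adjusted p = 2.92e-05). The chitin deacetylases *serp* (FBgn0260653, chromosome 3L, 19700977 to 19708015 in BDGP6) and *verm* (FBgn0261341, chromosome 3L, 19690033 to 19695260), which set tube length in the embryo, lie next to each other on the chromosome. *serp* had 7.66, 6.61, 10.9 and 4.602 RPKM in adult tracheae, against 295, 559.5, 139 and 653 RPKM in larval tracheae. *verm* averaged 5.44 ± 2.71 RPKM in adult tracheae, against 391 ± 216 RPKM in larval tracheae. Neither overlapped between the groups (log2 fold change -5.62, SE 0.69, edgeR adjusted p = 0.000309, -6.22 without adult replicate 3 for *serp*, log2 fold change -6.02, SE 0.79, edgeR adjusted p = 0.000456 for *verm*), and *Cda4* fell by 271-fold. In the precursor pathway *Gfat1*, the entry enzyme of hexosamine synthesis, averaged 4.81 ± 3.17 RPKM in adult tracheae, against 76.6 ± 14.4 RPKM in larval tracheae (log2 fold change -3.74, SE 0.69, edgeR adjusted p = 0.00302, -4.58 without adult replicate 3), while *Gfat2*, at 25.4 ± 11.1 RPKM in adult tracheae, against 27.6 ± 6.46 RPKM in larval tracheae, and *mmy*, which makes UDP-N-acetylglucosamine, at 58.1 ± 10.03 RPKM in adult tracheae, against 65.6 ± 11.1 RPKM in larval tracheae, did not pass. Of these genes *kkv*, *knk*, *rtv*, *serp* and *verm* are also among the tracheal epithelium markers.

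**Figure D3:**
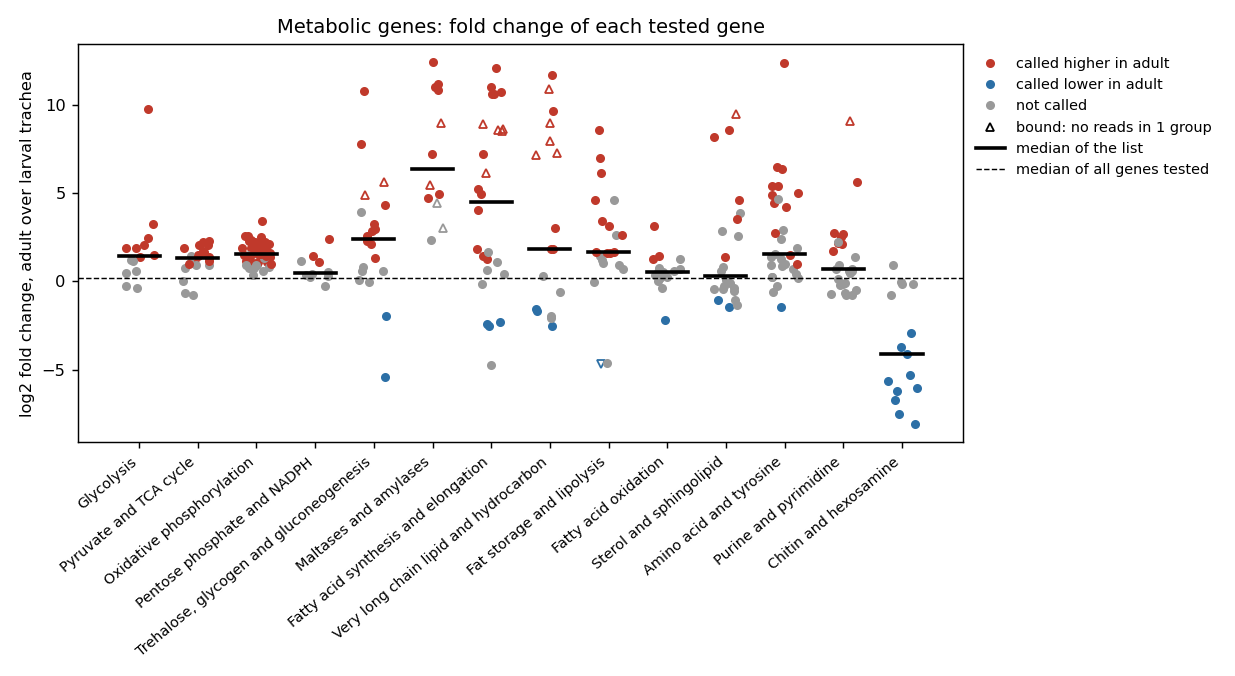
Log2 fold change, adult over larval, of each tested gene in the 14 metabolism lists, coloured by call, with triangles for the bound of genes without reads in 1 group, a bar at the list median and a dashed line at the median of all genes tested (0.19). The oxidative phosphorylation points form a compact cloud around 1.55, the synthesis and elongation genes reach far higher, and the chitin and hexosamine genes lie around -4.11.

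In FGF and PVF signalling 3 of 10 genes were lower, 1 without adult replicate 1, larval replicate 2 or larval replicate 4, and *Pvf3* was higher. The FGF receptor *btl* (FBgn0285896, chromosome 3L, 14075772 to 14083229), which drives tracheal branching, had 2.35, 5.201, 6.59 and 3.55 RPKM in adult tracheae, against 53.6, 44.998, 37.3 and 47.7 RPKM in larval tracheae. *btl* was 9.56-fold lower in adult tracheae and did not overlap (log2 fold change -3.26, SE 0.49, edgeR adjusted p = 0.000957, -3.91 without adult replicate 3). *btl* is also among the tracheal epithelium markers. Its ligand *bnl* averaged 0.746 ± 0.778 RPKM in adult tracheae, against 4.51 ± 2.88 RPKM in larval tracheae (log2 fold change -2.67, SE 0.82, edgeR adjusted p = 0.0350, -3.26 without adult replicate 2), a call that held in 4 of the 8 fits, the adjusted p being 0.0805 without adult replicate 1, 0.0578 without adult replicate 3, 0.0732 without larval replicate 2 and 0.0931 without larval replicate 4. The adaptor *stumps*, which links the receptor to Ras, averaged 5.23 ± 3.06 RPKM in adult tracheae, against 19.6 ± 4.598 RPKM in larval tracheae (log2 fold change -1.78, SE 0.57, edgeR adjusted p = 0.0413, -2.56 without adult replicate 3), and held in 1 of the 8 fits. The PVF receptor *Pvr* did not pass, at 6.63 ± 4.24 RPKM in adult tracheae, against 6.37 ± 0.386 RPKM in larval tracheae. The list median of -0.01 became 0.08 with the size factors of DESeq2, and the median of all genes became 0.27. In the EGF receptor pathway 2 of 23 genes were higher and 2 lower. The receptor *Egfr* and the ligand *spi* did not pass, at 7.67 ± 1.03 RPKM in adult tracheae, against 11.5 ± 2.79 RPKM in larval tracheae for *Egfr*, and 33.7 ± 5.52 RPKM in adult tracheae, against 43.3 ± 8.66 RPKM in larval tracheae for *spi*. The higher genes were *stet*, a rhomboid protease of the germline, and the ovarian ligand *grk*. *stet* had 7.25, 21.7, 0 and 26.6 RPKM in adult tracheae and no larval reads. The ovary and eggshell marker sum was 9003, 292, 97.3 and 13881 RPKM in adult replicates 1 to 4, and its part in *stet* and *grk* was not tested. The call of *grk* held in 1 of the 8 fits without a library, and those of the lower genes *vn*, a ligand, and *aos*, an inhibitor, in 2 and 6.

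Oxygen sensing gave 3 higher genes and 1 lower of 12. *sima*, the hypoxia-inducible factor that controls *btl* in low oxygen, had 6.545, 4.86, 4.06 and 2.60 RPKM in adult tracheae, against 25.3, 19.1, 14.2 and 17.2 RPKM in larval tracheae. *sima* was 4.09-fold lower without overlap (log2 fold change -2.03, SE 0.41, edgeR adjusted p = 0.00488). Its partner *tgo*, the prolyl hydroxylase *Hph* and *Vhl*, which act to degrade Sima, did not pass, with adult means of 4.53, 9.16 and 25.2 RPKM and larval means of 6.86, 6.32 and 13.1 RPKM. The haemoglobin *glob1*, a gene of tracheae and fat body, was abundant in both groups, at 428 ± 99.8 RPKM in adult tracheae, against 504 ± 77.8 RPKM in larval tracheae, and did not pass. The higher genes were nitric oxide synthase (*Nos*) and the cyclases *Gycalpha99B* and *Gyc88E*. Levels of these were low, with adult means of 0.377, 2.97 and 0.398 RPKM. The list had 1 higher gene on total gene reads, with the stricter expression filter, which left out the other higher genes, and without adult replicates 3 and 4, and 2 lower genes without adult replicate 3. *Nos* lost its call without larval replicate 1 (edgeR adjusted p = 0.0531).

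In the Notch pathway 12 of 24 genes fell, 9 to 13 with 1 library left out, the median log2 fold change was -1.23, and the other 12 did not pass the test. *Dl* (chromosome 3R, 19302731 to 19326217), one of the ligands, had 0.295, 0.547, 0.899 and 0.321 RPKM in adult tracheae, against 11.8, 11.5, 15.2 and 15.2 RPKM in larval tracheae. *Dl* did not overlap (log2 fold change -4.50, SE 0.59, edgeR adjusted p = 0.000447, -5.37 without adult replicate 3). *Ser*, the other ligand, averaged 0.301 ± 0.347 RPKM in adult tracheae, against 2.99 ± 1.16 RPKM in larval tracheae (log2 fold change -3.25, and -4.21 without adult replicate 1), and held its call in 3 of the 8 fits without 1 library. The receptor *N* had 1.46, 5.61, 4.64 and 3.37 RPKM in adult tracheae, against 14.7, 14.5, 18.1 and 12.5 RPKM in larval tracheae. *N* was 3.87-fold lower without overlap (log2 fold change -1.95, SE 0.45, edgeR adjusted p = 0.00942). Among the genes that modify ligand or receptor 4 of 12 fell. They were *O-fut1*, which fucosylates Notch, *numb*, which inhibits it, and the gamma-secretase subunits *Psn* and *Nct*, with folds of 4.05, 3.08, 2.01 and 2.20. *Psn* kept its call in 4 fits and *Nct* in 7. Of the E(spl) complex targets 5 of 6 fell. *E(spl)mbeta-HLH*, a repressor that Notch induces, had 8.95, 25.04, 12.6 and 13.1 RPKM in adult tracheae, against 95.3, 129, 102 and 83.4 RPKM in larval tracheae. *E(spl)mbeta-HLH* did not overlap (log2 fold change -2.83, SE 0.36, edgeR adjusted p = 0.000379). *E(spl)malpha-BFM* had no adult reads, against 7.76, 10.51, 8.55 and 6.52 RPKM in larval tracheae, at least 76.0-fold lower in adult tracheae. The nuclear partner *Su(H)* did not pass, at 3.86 ± 3.74 RPKM in adult tracheae, against 5.80 ± 2.28 RPKM in larval tracheae.

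Hedgehog signalling gave 7 lower genes of 12 and a median of -1.71, with 5 of 6 receptor genes lower. *smo*, the signal transducer, had 4.32, 3.23, 2.45 and 1.63 RPKM in adult tracheae, against 9.05, 9.03, 10.54 and 7.76 RPKM in larval tracheae. *smo* was lower without overlap (log2 fold change -1.62, SE 0.42, edgeR adjusted p = 0.0161). The co-receptors *ihog* and *dlp* averaged 3.70 ± 3.17 RPKM in adult tracheae, against 22.5 ± 2.51 RPKM in larval tracheae for *ihog* (log2 fold change -2.83, and -3.45 without adult replicate 4), and 3.40 ± 1.36 RPKM in adult tracheae, against 28.2 ± 11.2 RPKM in larval tracheae for *dlp*. *ptc*, the receptor and a target of the pathway, averaged 0.658 ± 0.719 RPKM in adult tracheae, against 4.61 ± 2.59 RPKM in larval tracheae (log2 fold change -2.88, and -3.47 without adult replicate 2), and lost its call in 1 of the 8 fits. *ci*, the transcription factor at the end of the pathway, had 0.998, 1.97, 1.79 and 0.2995 RPKM in adult tracheae, against 16.8, 15.9, 19.6 and 14.9 RPKM in larval tracheae. *ci* did not overlap (log2 fold change -3.62, SE 0.62, edgeR adjusted p = 0.00196, -4.22 without adult replicate 3). The ligand *hh* had too few reads to be tested, with 5 adult and 35 larval reads. In the Hippo pathway, which limits growth, 9 of 18 genes were lower and the median was -1.06. The upstream group fell in 7 of 9 genes. The protocadherin *ft* had 0.0924, 0.163, 0.230 and 0.128 RPKM in adult tracheae, against 7.01, 5.76, 9.65 and 2.27 RPKM in larval tracheae. *ft* and its partner *ds* were lower by 36.8-fold and 48.9-fold (log2 fold change -5.20, SE 0.64, edgeR adjusted p = 0.000326, -5.85 without adult replicate 3 for *ft*, and log2 fold change -5.61, and -6.26 without adult replicate 1 for *ds*). *kibra*, *crb* and *fj* also fell, and *kibra* averaged 4.94 ± 1.43 RPKM in adult tracheae, against 17.6 ± 1.83 RPKM in larval tracheae (log2 fold change -1.81, SE 0.35, edgeR adjusted p = 0.00376). Of these, *crb* is also among the tracheal epithelium markers. In the kinase core *wts* and *sav* did not pass, at 2.19 ± 1.32 RPKM in adult tracheae, against 2.17 ± 0.350 RPKM in larval tracheae for *wts*, and 2.38 ± 2.86 RPKM in adult tracheae, against 2.24 ± 1.75 RPKM in larval tracheae for *sav*, and the call of *hpo* held in 1 of the 8 fits.

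Other developmental pathways showed fewer calls. Wnt signalling gave 4 lower genes of 27 and a median of -0.69. That count was 1 without adult replicate 2, larval replicate 1 or larval replicate 4, 2 without larval replicate 3, and 7 without adult replicate 3. The Wnt receptor *drl* averaged 4.15 ± 2.77 RPKM in adult tracheae, against 24.3 ± 8.85 RPKM in larval tracheae (log2 fold change -2.44, SE 0.63, edgeR adjusted p = 0.0157, -3.16 without adult replicate 3) and was lower in each of the 8 fits, while *fz* and *arr* did not pass. TGF-beta signalling gave 2 higher and 2 lower genes of 20, with 5 lower without adult replicate 3. Among its ligands *daw* rose and *mav* fell. *daw* had 8.94, 18.5, 8.72 and 9.07 RPKM in adult tracheae, against 0.0446, 2.43, 0.244 and 1.09 RPKM in larval tracheae. *mav* had 3.45, 7.68, 3.06 and 1.17 RPKM in adult tracheae, against 33.6, 26.5, 30.3 and 33.8 RPKM in larval tracheae. Neither overlapped (log2 fold change 3.50, SE 0.87, edgeR adjusted p = 0.0136, 4.55 without larval replicate 2 for *daw*, log2 fold change -3.06, SE 0.51, edgeR adjusted p = 0.00163 for *mav*). The receptors *tkv*, *put* and *babo* did not pass, with log2 fold changes of -0.10, -0.75 and -1.08, and *dpp* was at 0.803 ± 0.926 RPKM in adult tracheae, against 1.51 ± 1.06 RPKM in larval tracheae. In JAK-STAT signalling 1 of 9 genes was called, the repressor *ken*, at 3.95 ± 1.28 RPKM in adult tracheae, against 15.7 ± 2.79 RPKM in larval tracheae (log2 fold change -2.04, SE 0.33, edgeR adjusted p = 0.00140), and *Stat92E* did not pass, at 20.9 ± 10.2 RPKM in adult tracheae, against 23.2 ± 3.23 RPKM in larval tracheae. JNK signalling gave 2 higher genes and 1 lower of 13. None of the 3 held in each fit: *wgn* held in 3, *kay* in 7 and *grnd* in 4. Of 18 guidance genes 4 were lower, a count of 2 without adult replicate 2 or any of larval replicates 1, 2 and 3, and of 10 with the exon length offset. *Nrg*, neuroglian, a component of septate junctions, averaged 8.05 ± 4.10 RPKM in adult tracheae, against 63.3 ± 12.0 RPKM in larval tracheae (log2 fold change -2.92, SE 0.51, edgeR adjusted p = 0.00219).

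Insulin and TOR signalling gave 7 higher genes and 2 lower of 28, with a median of 0.18. With the exon length offset that median was -0.04, against -0.15 over all genes. Of 7 ligands and binding proteins 5 rose. *Ilp6*, the insulin-like peptide of fat body and glia, had 8.71, 13.001, 5.04 and 1.72 RPKM in adult tracheae, against 0, 0, 0.578 and 0 RPKM in larval tracheae. *Ilp6* was higher in every adult library (log2 fold change 5.71, SE 1.39, edgeR adjusted p = 0.0121, 10.24 without larval replicate 3), but on uniquely mapped reads the log2 fold change was 1.596 and the call was lost (edgeR adjusted p = 0.597). *Ilp2*, a peptide of brain neurosecretory cells, had 11.3, 138, 77.3 and 0.804 RPKM in adult tracheae and no larval reads, at least 332-fold higher (210.1 without adult replicate 3 and 552 without adult replicate 4), with an adjusted p by edgeR of 0.0582 on uniquely mapped reads. The receptor *InR* and the kinases *Akt1* and *Tor* did not pass, with log2 fold changes of 0.91, -0.20 and -0.30. *Thor* (FBgn0261560, chromosome 2L, 3478434 to 3479612), the 4E-BP translation inhibitor that *foxo* induces, had 2282, 1994, 1223 and 776 RPKM in adult tracheae, against 246, 289, 373 and 323 RPKM in larval tracheae. *Thor* was the most abundant called signalling gene and did not overlap (log2 fold change 2.36, SE 0.41, edgeR adjusted p = 0.00197), and *foxo* itself did not pass, at 7.21 ± 2.33 RPKM in adult tracheae, against 3.76 ± 1.19 RPKM in larval tracheae. The count of higher genes was 4 without adult replicate 2 or 3 and 3 without larval replicate 1, 2 or 3.

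Ecdysone signalling held calls in both directions, 3 higher (5 without adult replicate 1) and 5 lower of 21. *EcR*, the ecdysone receptor, had 3.02, 3.55, 2.67 and 1.29 RPKM in adult tracheae, against 8.93, 8.27, 8.004 and 10.7 RPKM in larval tracheae. *EcR* was lower without overlap (log2 fold change -1.73, SE 0.40, edgeR adjusted p = 0.0101), as was *Oatp74D*, the ecdysone importer, at 3.41 ± 1.91 RPKM in adult tracheae, against 28.6 ± 2.37 RPKM in larval tracheae (log2 fold change -3.001, SE 0.51, edgeR adjusted p = 0.00181). Of the early genes, *br* had 0.157, 0.417, 0.693 and 0.101 RPKM in adult tracheae, against 4.06, 12.6, 4.12 and 11.2 RPKM in larval tracheae. *Eip93F*, the adult specifier, had 4.77, 14.2, 9.98 and 1.94 RPKM in adult tracheae, against 0.0115, 0, 0.0471 and 0.0965 RPKM in larval tracheae. *br* was lower and *Eip93F* higher, and neither overlapped (log2 fold change -4.29, SE 0.82, edgeR adjusted p = 0.00363, -5.43 without adult replicate 3 for *br*, log2 fold change 7.65, SE 1.04, edgeR adjusted p = 0.000560, 8.71 without larval replicate 4 for *Eip93F*). *Eip75B* did not pass, at 2.89 ± 1.36 RPKM in adult tracheae, against 4.94 ± 0.970 RPKM in larval tracheae, and *usp*, the partner of EcR, did not pass, at 1.78 ± 0.934 RPKM in adult tracheae, against 2.57 ± 1.99 RPKM in larval tracheae. In the juvenile hormone list of 10 genes 2 rose and 1 fell. *Jheh3*, an epoxide hydrolase that inactivates the hormone, had 7.90, 8.73, 15.9 and 23.0 RPKM in adult tracheae, against 266, 183, 226 and 435 RPKM in larval tracheae. *Jheh3* was 19.2-fold lower (log2 fold change -4.27, SE 0.52, edgeR adjusted p = 0.000299). Its neighbour *Jheh1* rose to 247 ± 37.3 RPKM in adult tracheae, against 111 ± 22.2 RPKM in larval tracheae (log2 fold change 1.19, SE 0.33, edgeR adjusted p = 0.0237), a call held in 6 of the 8 fits, and *Jheh2* did not pass, at 35.3 ± 8.58 RPKM in adult tracheae, against 34.3 ± 8.50 RPKM in larval tracheae. The receptor *Met* and the response gene *Kr-h1* did not pass, with log2 fold changes of 0.47 and 0.13.

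G protein signalling gave 8 higher genes and 1 lower of 33, with the higher count at 5 without adult replicate 3, larval replicate 1 or larval replicate 4, and the lower count at 5 without adult replicate 3. The leading genes belong to the light response of the eye. *Arr2*, the main arrestin of photoreceptors, had 436, 783, 945 and 726 RPKM in adult tracheae, against 0.565, 2.52, 0 and 0.0791 RPKM in larval tracheae. *Arr2* did not overlap (log2 fold change 9.86, SE 1.22, edgeR adjusted p = 0.000338, 11.67 without larval replicate 2). *Gbeta76C*, the eye-specific beta subunit, had 39.5, 91.4, 77.2 and 65.5 RPKM in adult tracheae and 1 larval read, a ratio of 2811 (95% counting interval 504 to 111045). The summed photoreceptor markers, which include *Arr1* and *Arr2*, were 1328 to 2368 RPKM in adult libraries and 5.27 to 12.2 RPKM in larval libraries, and their part in this list was not tested. Of the widely expressed subunits, *Gbeta13F* was lower, in 5 of the 8 fits, at 20.7 ± 10.7 RPKM in adult tracheae, against 48.1 ± 5.08 RPKM in larval tracheae, and *Galphas* did not pass, at 11.7 ± 6.34 RPKM in adult tracheae, against 36.9 ± 6.96 RPKM in larval tracheae. Among the Methuselah receptors, a family of secretin-like receptors, 5 of 10 tested genes fell and 1 rose, in each of the 8 fits. *mthl9* had 0, 0.774, 0.439 and 0.505 RPKM in adult tracheae, against 68.3, 73.9, 69.6 and 66.6 RPKM in larval tracheae. *mthl9* was 157-fold lower, the largest decrease of the list (log2 fold change -7.30, SE 0.65, edgeR adjusted p = 6.14e-05). *mthl2* had 32.03, 48.7, 10.51 and 11.2 RPKM in adult tracheae, against 0.429, 0.274, 0.0979 and 0.241 RPKM in larval tracheae. *mthl2* was the higher member (log2 fold change 6.42, SE 0.66, edgeR adjusted p = 0.000130). *mthl3*, *mthl4*, *mthl10* and *mth* fell by 37.1-fold, 16.6-fold, 6.59-fold and 3.21-fold (log2 fold change -4.05, and -4.80 without adult replicate 1 for *mthl4*).

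**Figure D4:**
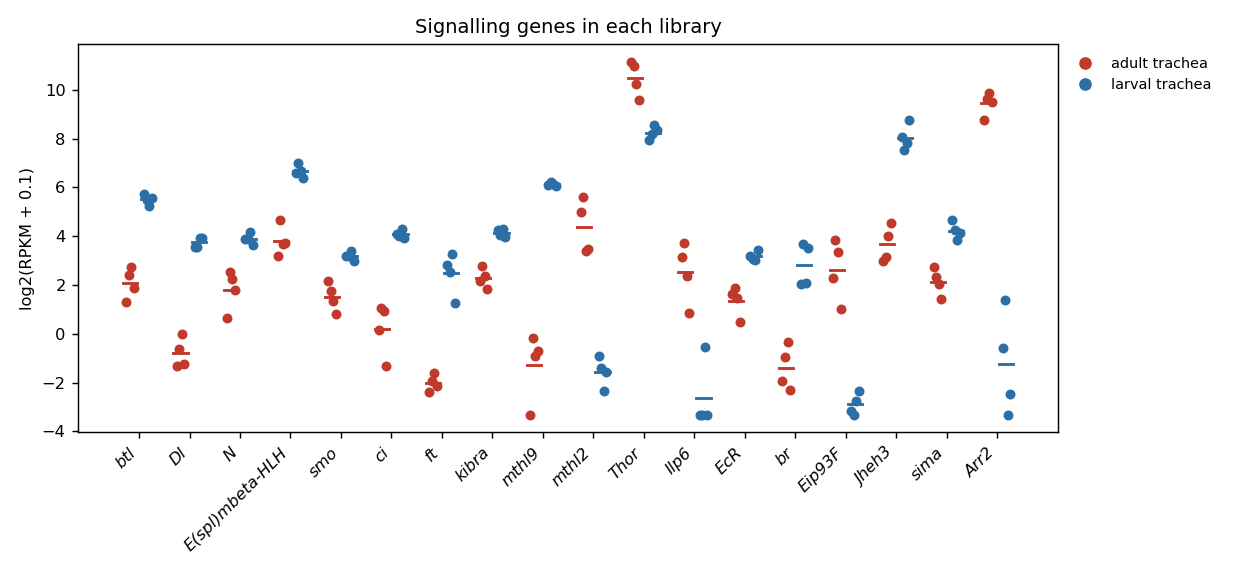
Levels of 18 signalling genes as log2(RPKM + 0.1) in each library, adult points left of larval points, with bars at the means. Points of the groups do not overlap for any of the 18 genes, with *btl*, *Dl*, *ci*, *ft*, *mthl9* and *Jheh3* among the lower and *mthl2*, *Thor*, *Ilp6*, *Eip93F* and *Arr2* the higher ones in adult tracheae.

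The early secretory pathway gave few calls. Of 31 genes of ER translocation 3 were lower (5 without adult replicate 3, and 8 with the exon length offset), and the median was -0.34. The translocon gene *Sec61alpha* did not pass, at 189 ± 53.3 RPKM in adult tracheae, against 244 ± 66.6 RPKM in larval tracheae. Within glycosylation the oligosaccharyltransferase subunit *Stt3A* had 18.5, 39.8, 18.7 and 57.9 RPKM in adult tracheae, against 83.4, 106, 75.7 and 97.8 RPKM in larval tracheae. *Stt3A* was lower without overlap (log2 fold change -1.56, SE 0.32, edgeR adjusted p = 0.00504), and *OstDelta* fell by 2.50-fold. Of 16 ER chaperone and stress genes 3 were lower. The disulphide isomerase *ERp60* had 93.7, 127, 65.4 and 111 RPKM in adult tracheae, against 214, 225, 272 and 290.2 RPKM in larval tracheae. *ERp60* did not overlap (log2 fold change -1.40, SE 0.24, edgeR adjusted p = 0.00209). Calreticulin (*Calr*) averaged 315 ± 62.4 RPKM in adult tracheae, against 675 ± 87.2 RPKM in larval tracheae (log2 fold change -1.10, SE 0.29, edgeR adjusted p = 0.0166), which did not pass a test against 1.5-fold (glmTreat of edgeR, adjusted p = 0.0634). *Xbp1*, the factor of the unfolded protein response, and the BiP gene *Hsc70-3* did not pass, at 404 ± 65.8 RPKM in adult tracheae, against 321 ± 109 RPKM in larval tracheae for *Xbp1*, and 137 ± 51.2 RPKM in adult tracheae, against 139.6 ± 42.5 RPKM in larval tracheae for *Hsc70-3*. In the COPII coat, which carries cargo from the ER, 1 of 20 genes was lower (3, with 1 higher, without adult replicate 3), the cargo receptor *loj*, at 41.5 ± 16.8 RPKM in adult tracheae, against 90.5 ± 22.7 RPKM in larval tracheae. Of 15 genes of the COPI coat and Arf group edgeR called 0, 4 had an unadjusted p below 0.05, and DESeq2 called 1 higher and 1 lower.

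Later steps gave few calls, genes of the synapse among them. Of 35 genes of Golgi and exocytosis 4 were higher, and DESeq2 called 7 higher. The SNARE gene *Snap25*, of the synapse, had 3.92, 30.6, 31.6 and 6.81 RPKM in adult tracheae, against 0.0638, 0, 0.175 and 0.107 RPKM in larval tracheae. *Snap25* was higher on exon reads (log2 fold change 7.84, SE 1.11, edgeR adjusted p = 0.000713, 6.93 without adult replicate 3), but when intron reads were added the log2 fold change was 0.94 and the call was lost (edgeR adjusted p = 0.121). *nSyb*, its synaptic partner, averaged 10.54 ± 7.01 RPKM in adult tracheae, against 0.105 ± 0.110 RPKM in larval tracheae (log2 fold change 6.79, and 5.96 without adult replicate 3 and 7.64 without larval replicate 4). The neuron markers include both genes and summed to 37.0 to 163 RPKM in adult libraries and 22.03 to 27.8 RPKM in larval libraries. The general SNARE gene *Syb* did not pass, at 172 ± 53.7 RPKM in adult tracheae, against 203 ± 31.3 RPKM in larval tracheae, and none of the 8 exocyst genes was called by edgeR, with 0 at an unadjusted p below 0.05 and 0 by DESeq2. Among 22 Rab genes 3 rose, *Rab32* of pigment granules, *Rab3* of synaptic vesicles and *Rab26* (5 without larval replicate 2), and *Rab3* lost its call without adult replicates 3 and 4 (edgeR adjusted p = 0.0627). *Rab32* averaged 15.2 ± 4.12 RPKM in adult tracheae, against 1.88 ± 1.65 RPKM in larval tracheae (log2 fold change 2.96, SE 0.55, edgeR adjusted p = 0.00307, 3.73 without larval replicate 4), while *Rab1*, *Rab5*, *Rab7* and *Rab11* did not pass, with log2 fold changes of -0.05, -0.04, 0.01 and -0.51. The medians of the Golgi, Rab and endocytosis lists were 0.07, 0.11 and 0.08. With the exon length offset they were -0.15, -0.24 and -0.08, against -0.15 over all genes.

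In endocytosis the 13 genes of coat and scission gave 0 calls by edgeR, 0 at an unadjusted p below 0.05 and 0 by DESeq2, and the 6 receptors gave 2 higher and 2 lower. *emp*, a scavenger receptor required for uptake of luminal material in the embryonic trachea, had 46.2, 90.5, 50.7 and 43.5 RPKM in adult tracheae, against 391.7, 362, 265 and 509 RPKM in larval tracheae. *emp* was 6.71-fold lower without overlap (log2 fold change -2.75, SE 0.35, edgeR adjusted p = 0.000413). *mgl*, a megalin-type receptor, averaged 4.31 ± 1.64 RPKM in adult tracheae, against 17.1 ± 2.91 RPKM in larval tracheae (log2 fold change -1.90, SE 0.42, edgeR adjusted p = 0.00804). *Cubn*, a cubilin of nephrocytes, was 7.22-fold higher (log2 fold change 2.85, and 3.46 without larval replicate 1), and the oocyte yolk receptor *yl* had 4.81, 1.97, 0 and 3.99 RPKM in adult tracheae and no larval reads.

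The vacuolar proton pump, which acidifies endosomes, gave 3 higher and 5 lower genes of 21. The lower count was 13 without adult replicate 3, 2 without adult replicate 1 and 3 without any other single library, and the list median was -0.68. The catalytic subunit is encoded by *Vha68-1* and *Vha68-2*. *Vha68-1* had 9.45, 42.3, 48.8 and 40.03 RPKM in adult tracheae, against 1.31, 0.104, 1.56 and 0.823 RPKM in larval tracheae. *Vha68-2* had 138, 216, 323 and 216 RPKM in adult tracheae, against 567, 544, 543 and 957 RPKM in larval tracheae. The paralogues thus differed in sign, *Vha68-1* in each fit (log2 fold change 5.29, SE 0.84, edgeR adjusted p = 0.00129, 4.69 without adult replicate 3) and *Vha68-2* in 1 of the 8 fits without a library (log2 fold change -1.42, SE 0.44, edgeR adjusted p = 0.0366, -2.04 without adult replicate 3). *Vha16-1*, the proteolipid of the membrane ring, averaged 332 ± 153 RPKM in adult tracheae, against 1164 ± 280.4 RPKM in larval tracheae (log2 fold change -1.71, SE 0.46, edgeR adjusted p = 0.0200) and lost its call in 1 fit. *Vha100-2* averaged 60.8 ± 11.7 RPKM in adult tracheae, against 165 ± 47.8 RPKM in larval tracheae (log2 fold change -1.43, SE 0.33, edgeR adjusted p = 0.00893). Counts of near-identical paralogues depend on how reads of shared sequence were assigned.

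Mucins and glue proteins were sparse, with 13 of 25 genes tested and 4 higher. *Muc68D* had 5.79, 12.4, 6.26 and 1.73 RPKM in adult tracheae and no larval reads, at least 252-fold higher (381 without adult replicate 4). The salivary glue genes *Sgs3* and *Sgs4* did not pass, at 2.62 ± 4.48 RPKM in adult tracheae, against 0.624 ± 1.25 RPKM in larval tracheae for *Sgs3*, and 1.89 ± 2.59 RPKM in adult tracheae, against 0.0366 ± 0.0731 RPKM in larval tracheae for *Sgs4*. The basement membrane, the matrix under the epithelium, gave 6 higher and 2 lower genes of 18 (median 0.99). *SPARC*, a collagen chaperone of the matrix, had 939.9, 232, 201 and 177 RPKM in adult tracheae, against 17.1, 2.09, 43.5 and 14.3 RPKM in larval tracheae. *SPARC* was highest in adult replicate 1 and did not overlap (log2 fold change 4.36, SE 0.94, edgeR adjusted p = 0.00663, 3.43 without adult replicate 1 and 5.15 without larval replicate 3). The collagen IV genes *Col4a1* and *vkg*, which lie head to head, averaged 9.27 ± 3.68 RPKM in adult tracheae, against 0.523 ± 0.224 RPKM in larval tracheae for *Col4a1*, and 6.56 ± 2.02 RPKM in adult tracheae, against 0.766 ± 0.800 RPKM in larval tracheae for *vkg* (log2 fold change 3.07, and 3.99 without larval replicate 3). *Timp*, the metalloproteinase inhibitor, averaged 96.4 ± 34.9 RPKM in adult tracheae, against 6.04 ± 5.15 RPKM in larval tracheae (log2 fold change 3.96, SE 0.66, edgeR adjusted p = 0.00167, 4.66 without larval replicate 2). Opposite to these, *trol*, the perlecan gene, had 6.43, 14.001, 19.8 and 3.71 RPKM in adult tracheae, against 114, 69.2, 99.5 and 82.0 RPKM in larval tracheae. *trol* fell without overlap (log2 fold change -2.86, SE 0.64, edgeR adjusted p = 0.00807, -3.78 without adult replicate 3), as did *LanB1*, a laminin chain, by 3.70-fold. *Mmp1* and *Mmp2* did not pass, at 8.50 ± 5.27 RPKM in adult tracheae, against 22.1 ± 12.2 RPKM in larval tracheae for *Mmp1*, and 1.53 ± 0.869 RPKM in adult tracheae, against 0.213 ± 0.193 RPKM in larval tracheae for *Mmp2*. Haemocytes and fat body are the main sources of collagen IV and SPARC in flies. The haemocyte marker sum was 164 to 244 RPKM in adult libraries and 39.9 to 90.3 RPKM in larval libraries, and its part in this list was not tested.

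Transcription factors of tracheal development were lower as far as they were called. Of 18 tested genes 5 fell, 13 did not pass and the median log2 fold change was -1.38. *vvl*, a POU factor of all tracheal cells, had 9.48, 8.20, 8.42 and 6.38 RPKM in adult tracheae, against 26.9, 21.7, 22.8 and 20.6 RPKM in larval tracheae. *vvl* was 2.73-fold lower without overlap (log2 fold change -1.45, SE 0.35, edgeR adjusted p = 0.0112), and it is also among the tracheal epithelium markers. *grh*, which controls the cuticle and apical membrane, averaged 0.924 ± 0.363 RPKM in adult tracheae, against 6.06 ± 1.93 RPKM in larval tracheae (log2 fold change -2.69, SE 0.46, edgeR adjusted p = 0.00191). *salr* and *esg*, of the dorsal trunk and of the fusion and progenitor cells, fell by 6.17-fold and 20.2-fold, *esg* in 4 of the 8 fits (log2 fold change -4.34, and -6.53 without adult replicate 3). *kni*, *salm*, *pnt* and *bs* did not pass, with log2 fold changes of -1.57, -1.40, -1.37 and -0.80. Of the Hox genes, *abd-A* had 0.639, 0.0754, 0.0610 and 0.0562 RPKM in adult tracheae, against 3.35, 3.59, 2.001 and 4.89 RPKM in larval tracheae. *abd-A* was lower without overlap (log2 fold change -4.13, SE 0.92, edgeR adjusted p = 0.00800, -5.71 without adult replicate 1). *Abd-B* had 3 reads in adult tracheae, against 1248 reads in larval tracheae, lower in adult tracheae by a ratio of 624 (95% counting interval 213 to 3028). *Antp* and *Ubx* did not pass, at 4.02 ± 2.79 RPKM in adult tracheae, against 15.9 ± 7.70 RPKM in larval tracheae for *Antp*, and 2.16 ± 1.40 RPKM in adult tracheae, against 7.40 ± 1.96 RPKM in larval tracheae for *Ubx*, and the lower Hox genes numbered 4 without adult replicate 4.

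*Hnf4*, a nuclear receptor of lipid and glucose metabolism, had 17.2, 21.2, 10.9 and 8.36 RPKM in adult tracheae, against 3.82, 4.64, 3.26 and 4.89 RPKM in larval tracheae. *Hnf4* was 3.42-fold higher without overlap (log2 fold change 1.77, SE 0.36, edgeR adjusted p = 0.00503). *srp*, the GATA factor of fat body and haemocytes, had 13.3, 12.2, 5.62 and 5.67 RPKM in adult tracheae, against 0.334, 0.467, 0.492 and 0.842 RPKM in larval tracheae. *srp* did not overlap either (log2 fold change 4.07, SE 0.47, edgeR adjusted p = 0.000233), and it is also among the haemocyte markers. *sug*, a sugar-responsive factor, rose by 12.5-fold in 7 of the 8 fits (log2 fold change 3.65, and 4.92 without larval replicate 3), while its inducer *Mondo* and the lipid factor *SREBP* did not pass, at 5.87 ± 2.32 RPKM in adult tracheae, against 3.46 ± 1.23 RPKM in larval tracheae for *Mondo*, and 28.9 ± 5.70 RPKM in adult tracheae, against 20.6 ± 3.58 RPKM in larval tracheae for *SREBP*. In the nuclear receptor list 2 of 16 genes rose and 2 fell (1 lower without larval replicate 1), and *ERR* and *Hr96* did not pass. The bHLH list gave 3 higher and 3 lower of 22, the bZIP list 2 and 2 of 16, and the Sox, T-box and ETS list 3 and 3 of 17. Without larval replicate 1 the bHLH list had 1 lower gene, the bZIP list 0 higher by edgeR and 1 lower, and the Sox list 1 higher, and without adult replicate 1 the Sox list had 1 lower. The GATA and Forkhead list gave 3 higher of 12 (median 0.97). On total gene reads its median was 0.14, against 0.16 over all genes. The metabolic factors gave 2 higher and 1 lower of 17. These counts were 4 and 2 without adult replicate 4, with 1 higher without larval replicate 2 and 0 lower by edgeR without larval replicate 1. The homeodomain and limb factors gave 3 higher and 1 lower of 18, with 3 lower without adult replicate 3. *Atf3*, of the bZIP list, averaged 5.12 ± 2.80 RPKM in adult tracheae, against 19.4 ± 0.501 RPKM in larval tracheae (log2 fold change -1.88, SE 0.51, edgeR adjusted p = 0.0191). *Sox102F* averaged 6.82 ± 4.02 RPKM in adult tracheae, against 0.140 ± 0.168 RPKM in larval tracheae (log2 fold change 5.50, SE 1.07, edgeR adjusted p = 0.00400, 6.37 without larval replicate 1). *Hand*, a factor of heart and nephrocytes, had 6.003, 14.5, 13.4 and 4.64 RPKM in adult tracheae and no larval reads. Of 10 NF-kappaB and stress factors *dl* was called lower in 5 of the 8 fits, and *Rel*, *Dif*, *Hsf* and *cnc* did not pass, with log2 fold changes of 0.32, 0.25, 0.26 and 0.30.

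The clock list had 8 higher and 2 lower of 15 (median 1.39). The higher count was 4 without adult replicate 2 and 5 without adult replicate 3, larval replicate 3 or larval replicate 4, and 0 genes were called lower by edgeR without adult replicate 1, larval replicate 1 or larval replicate 3. *cyc*, the partner of Clock, had 14.2, 30.7, 9.30 and 42.9 RPKM in adult tracheae, against 6.542, 2.83, 7.97 and 3.16 RPKM in larval tracheae. *cyc* was 4.17-fold higher without overlap (log2 fold change 2.06, SE 0.49, edgeR adjusted p = 0.0109), and *Clk* had 352 adult and 2 larval reads, a ratio of 117.4 (95% counting interval 32.3 to 973) (52.6 without adult replicate 3). *tim*, a repressor of the loop, had 10.8, 8.39, 5.30 and 1.92 RPKM in adult tracheae and 1 larval read, a ratio of 909 (95% counting interval 163 to 35935). *cry* (FBgn0025680, chromosome 3R, 19212154 to 19215442), the blue light receptor of the clock, had 32.4, 56.6, 52.5 and 61.2 RPKM in adult tracheae, against 0.230, 0, 0 and 0.646 RPKM in larval tracheae. *cry* did not overlap (log2 fold change 7.72, SE 0.89, edgeR adjusted p = 0.000221, 9.12 without larval replicate 4), *per* held in 6 of the 8 fits and *vri* in 2. *Pdp1* and *cwo* did not pass, with log2 fold changes of 0.73 and 0.36. The time of day of dissection is unknown here, and photoreceptors, whose markers were higher as given above, also run clocks, a part that was not tested.

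**Figure D5:**
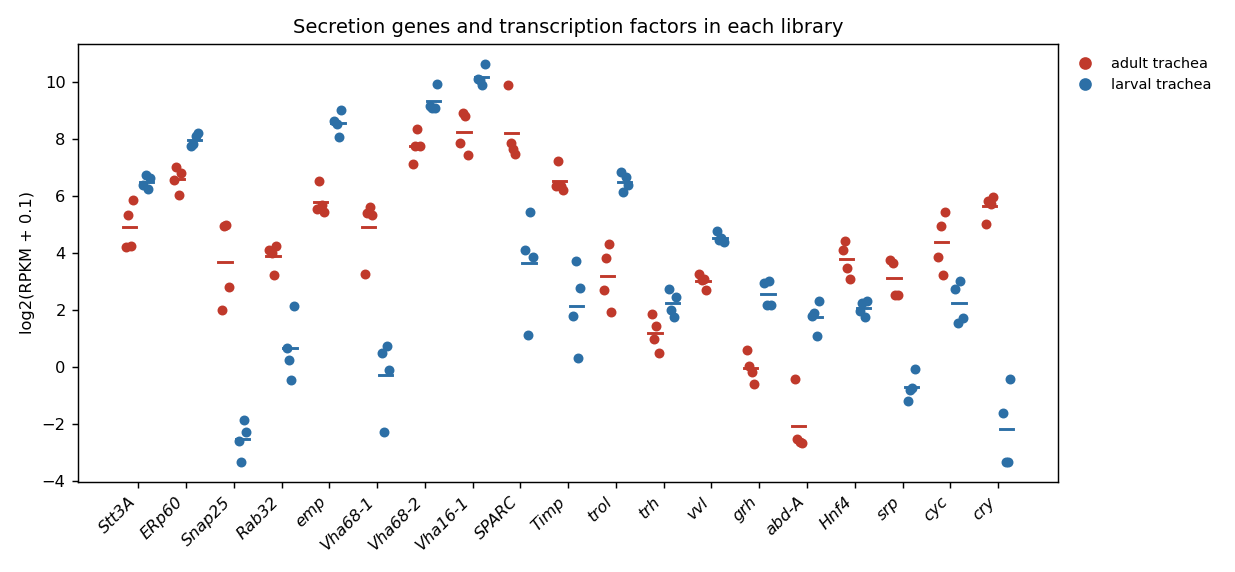
Levels of 19 secretion and transcription factor genes as log2(RPKM + 0.1) in each library, adult points left of larval points, with bars at the means. Only *trh* among the 19 has overlapping groups, *emp*, *trol* and *abd-A* are lower in adult tracheae, and *Snap25*, *Vha68-1*, *SPARC* and *cry* are higher.

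Outside the lists, the 10 largest increases and 10 largest decreases among abundant genes that were called in every fit without 1 library included genes of secreted and cuticle proteins. *Est-6*, an esterase of haemolymph and seminal fluid, had 257, 452, 1618 and 619 RPKM in adult tracheae and no larval reads, at least 15055-fold higher (6791 without adult replicate 3). The immune-induced peptide genes *IM1* and *IM2* had no larval reads and were at least 2175-fold (535 without adult replicate 2) and 3179-fold (1739 without adult replicate 2) higher. *whe* had 61717, 4737, 212090.0 and 24704 RPKM in adult tracheae, against 6.71, 2.57, 6.89 and 7.61 RPKM in larval tracheae. Among the decreases, each of the 10 genes had no adult reads. *Lcp65Ab2*, a larval cuticle protein, had no adult reads, against 793, 2297, 285 and 1183 RPKM in larval tracheae, at least 6866-fold lower in adult tracheae. The cuticle protein genes *Cpr12A*, *Cpr67Fa1* and *TwdlX* were at least 1111-fold, 1379-fold (868 without larval replicate 2) and 1476-fold lower.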

How the data were processed

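RNA was sequenced from 4 libraries of adult tracheae and 4 of larval tracheae. The authors primed cDNA at the poly(A) tail, added a primer site at the cap and amplified the whole cDNA by PCR. They mapped the reads to BDGP6 and counted them per gene in CLC Genomics Workbench (version not given in the sources used). The deposited tables give counts of exon, gene and intron reads for 17697 genes. They also give the authors' RPKM, that is total exon reads scaled by exon length in kilobases and by the total gene reads of the library, which was recomputed from the counts and matched. The deposited TPM values, exon reads per kilobase that the authors scaled to 1 fixed total per library, were not analysed. For 3784 genes, mitochondrial genes among them, the tables list an exon length of 0, so their reads stand among the intron reads and are absent from the exon counts.

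Total exon reads of the 8 libraries were tested with edgeR 4.0.16 in R 4.3.3, by the quasi-likelihood test with TMM normalisation, keeping genes that had 10 reads or more in 2 or more libraries. P-values were adjusted by Benjamini-Hochberg over all genes tested. Calls needed an adjusted p below 0.05 and a change above 1.5-fold. A gene with no reads in 1 group is given a bound against 3 reads over that group, and one with 1 to 3 reads a ratio with its 95% counting interval, which covers counting error only. The scripts were tested on simulated data. Tables were handled with pandas 2.3.3 in Python 3.11.15. Alternatives were DESeq2 1.42.0, other normalisation, filters and read classes, a replicate block, an exon length offset, all 3 groups in 1 fit, and each library left out.

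The genes and lists were chosen with earlier results of these data known. Per list, up to 4 called genes a direction were eligible for full statistics, as were the 2 most abundant genes. The called genes were ranked by fold change among those that held without each library, did not overlap and reached a mean of 5 RPKM. Not all eligible genes are given above, no further rule chose among them, and some other members carry full statistics too. Ligands, receptors and first enzymes could be named whether called or not, and other members are named with their values. Outside the lists, the 10 largest changes each way above a mean of 50 RPKM were taken. By name, 14072 of the gene symbols were matched to an identifier in the reference annotation, and 6 list entries were not matched to a symbol. Letters in some table names can be read as another group, so groups were taken from the sample titles. Promoter motifs were not analysed here.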

Additional observations from a re-analysis of the deposited data

Results flagged for a closer look

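In 18 of the 174 groups of 4 libraries examined, 1 library lay apart from the others by more than Dixon's test allows at the 95% level, which chance gives in about 1 of 20 groups. In 6 of the 18 the other 3 libraries had no reads, which alone puts the fourth past the limit, and the other 12 are out of all 174 groups. The 174 include groups with no reads in any library, which could not pass the limit, so the chance rate does not hold for them. The groups covered the genes with values per library above, the marker sums and the library totals.

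In adult tracheae, adult replicate 1 was apart for *SPARC* (940 RPKM, against 177 to 232 RPKM in the others) and for *abd-A* (0.639 RPKM, against 0.0562 to 0.0754 RPKM). Adult replicate 2 was apart for *FASN1* (78.2 RPKM, against 59.3 to 60.9 RPKM), *wat* (256 RPKM, against 58.6 to 90.5 RPKM), *daw* (18.5 RPKM, against 8.72 to 9.07 RPKM) and *emp* (90.5 RPKM, against 43.5 to 50.7 RPKM). Adult replicate 3 was apart for the salivary gland markers, which summed to 86.8 RPKM, against 0 to 3.28 RPKM. Adult replicate 4 was apart for *COX8* (2824 RPKM, against 1071 to 1205 RPKM), *kkv* (0.229 RPKM, against 0 to 0.0241 RPKM) and the muscle markers, which summed to 2331 RPKM, against 869 to 1088 RPKM.

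In larval tracheae, larval replicate 4 was apart for *Pepck* (9.45 RPKM, against 3.77 to 4.39 RPKM) and *Vha68-2* (957 RPKM, against 543 to 567 RPKM). In the remaining cases 1 larval library held all the larval reads of a gene, larval replicate 3 for *Hex-C* (0.534 RPKM), *Amy-p* (0.119 RPKM), *eloF* (0.214 RPKM) and *Ilp6* (0.578 RPKM), larval replicate 2 for *Gbeta76C* (0.0950 RPKM) and larval replicate 1 for *tim* (0.0236 RPKM).

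Reads of the mitochondrial gene *COX1*, which the exon counts leave out, averaged 5775 ± 858 CPM in adult tracheae, against 1764 ± 215 CPM in larval tracheae (SD, n = 4 each).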

How the results depend on the processing

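Genes called numbered 2180 to 3326 over all alternatives, against 2791. With the exon length offset the secretion genes called were 63, against 38, and without larval replicate 1 the transcription factor genes called were 26, against 42. With 1 library left out the calls ranged from 2245 to 2695 over all genes, from 62 to 93 in signalling (91 with all libraries), from 158 to 176 in metabolism (177), from 33 to 53 in secretion and from 26 to 45 in transcription factors. The distance between the group means on the first principal component was 260.3, 276 on log2(RPKM + 0.1) and 172 on the 500 most variable genes. Of 425 called genes of the lists, marker lists and extremes, 0 changed direction in any edgeR or DESeq2 alternative that tested them. Losses of a call numbered 78 with the replicate block, 74 without adult replicates 3 and 4, 61 in the glmTreat test, 29 to 72 with 1 library left out and 3 to 23 in the other alternatives that tested all 425. The filterByExpr filter left 35 untested and lost 1, uniquely mapped reads left 16 untested and lost 9, and 15 were untested without adult replicates 3 and 4 and up to 2 with 1 library left out. Leaving out 1 library moved the fold change of 169 by more than 1.5 times.

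Replicate numbers did not pair the libraries. Deviations of same-numbered libraries correlated at -0.0590 to -0.0019, and the replicate block gave 2242 calls, 1512 higher and 730 lower, 69 of them in signalling (19 higher), 150 in metabolism, 32 in secretion and 28 in transcription factors.

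Reads came from amplified cDNA without molecular identifiers and are not independent molecules. With 4 libraries a group, small changes were not detectable. The planned search of promoters for motifs was not run.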

Other observations

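The genes of the mitochondrial genome, chosen here after their values were seen, are absent from the exon counts and were compared on total gene reads. Of the 13 protein genes 12 were higher in adult tracheae by the same edgeR test, with log2 fold changes of 0.88 to 2.76 (median 1.48) over the 13. Their reads summed to 17162, 15794, 15118 and 14199 CPM in adult tracheae, against 4229, 5033, 6173 and 5122 CPM in larval tracheae. *COX1*, the catalytic subunit of complex IV, had a log2 fold change of 1.73 (edgeR adjusted p = 0.00300). *ND5*, of complex I, did not pass (log2 fold change 0.88, edgeR adjusted p = 0.0943). The large ribosomal RNA *lrRNA* did not pass either, at 2261 ± 672 CPM in adult tracheae, against 1701 ± 136 CPM in larval tracheae (log2 fold change 0.37, edgeR adjusted p = 0.393). The less abundant *srRNA* was higher (log2 fold change 2.99, edgeR adjusted p = 0.00255).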
